A study of Homo sapiens with 4 samples.

Results

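The death receptor and BCL2 family genes described here are 5 genes of programmed cell death on a cancer-gene microarray: TNFRSF10A, CASP8 and CFLAR of the extrinsic pathway, and BCL2 and BAX of the mitochondrial pathway. They were taken by the gene name in the spot tables, which gave 6 of the 1856 non-control probes and 12 of the 3786 non-control spots of an array. BCL2 had 2 probes, and each of the 6 probes was printed as 2 spots. RNA of SW480 cells, a long-established human line derived from an adenocarcinoma of the colon, was hybridised to 2-colour arrays of oligonucleotides. The cells were grown in DMEM F12 with 10% fetal bovine serum and treated for 10 h. The control group received 15% (v/v) MRS, the medium in which the bacterium is grown (2 samples). The BM group received 15% of a postbiotic of Bacillus mojavensis, which had itself been grown in MRS (2 samples). The submitters describe the samples as independently grown and harvested. Array 1 held replicate 1 of both groups and array 2 held replicate 2, with MRS in Alexa Fluor 555 and BM in Alexa Fluor 647 on both. A dye effect on a probe and an effect of BM therefore cannot be told apart in any ratio below. The groups were taken from the sample titles, since the treatment label is the same for all 4 samples.

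In the extrinsic pathway, ligands such as TRAIL bind death receptors at the cell surface, which recruit the adaptor FADD and the initiator caspase-8. CFLAR encodes c-FLIP, a relative of caspase-8 that takes its place at the receptor and limits its activation. In the mitochondrial pathway, BAX permeabilises the outer mitochondrial membrane and releases cytochrome c, and BCL2 holds BAX and its relatives in check. Caspase-8 can also feed the mitochondrial pathway by cleaving BID, and both routes end in the executioner caspases.

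Median raw intensities of the spots were 1985 and 2186 for MRS and 1655 and 1895 for BM, over median local backgrounds of 49.6 and 51.9 (MRS) and 79.5 and 101.7 (BM). The number of arrays limits the precision of all values. Of 16 colon epithelial markers, 8 were on the array (EPCAM, KRT19, CEACAM5, CEACAM1, MUC2, GPA33, CDH17 and LGALS4), and all 8 reached 1.5 times the local background in all 4 samples. Their summed signal was 34109 and 36646 in MRS and 31186 and 34396 in BM. All 7 measured fibroblast markers (COL1A1, COL1A2, COL3A1, FAP, PDGFRA, VIM and THY1) also lay above background, at 2.45 to 783 times its level, with summed signals of 45975 and 60062 in MRS and 47179 and 66469 in BM. An epithelial line should lack most of these genes, so a signal above background on these arrays is not read below as expression of a gene. What part such signal has in the ratios was not tested.

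The comparison of BM with MRS asks whether the postbiotic changed the RNA of these genes within 10 h. None of the 6 probes passed the test. In bulk RNA of a culture, fewer cells that carry a transcript and less of it per cell cannot be told apart. After loess normalization, the mean ratios of BM over MRS ran from 0.880-fold for CASP8 to 1.11-fold for 1 BCL2 probe, and the adjusted p-values ran from 0.692 to 0.957 (limma, Benjamini-Hochberg over all probes, two-sided). Over the whole array, 0 of 1856 probes passed (0%), and 122 (6.57%) had an unadjusted p under 0.05, among them 1 of the 6 members, CASP8. TNFRSF10A, CFLAR and the BCL2 probe NM_000657 were higher in BM on both arrays, as were 24.6% of all probes. CASP8 and BAX were lower on both, as were 28.4% of all probes. The BCL2 probe NM_000633 had opposite signs. These genes were picked out with ratios of these same arrays known, so the shared signs are a description. With 2 pairs of samples, an exact sign-flip test of a single ratio could not go below p = 0.5.

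**Figure D1:**
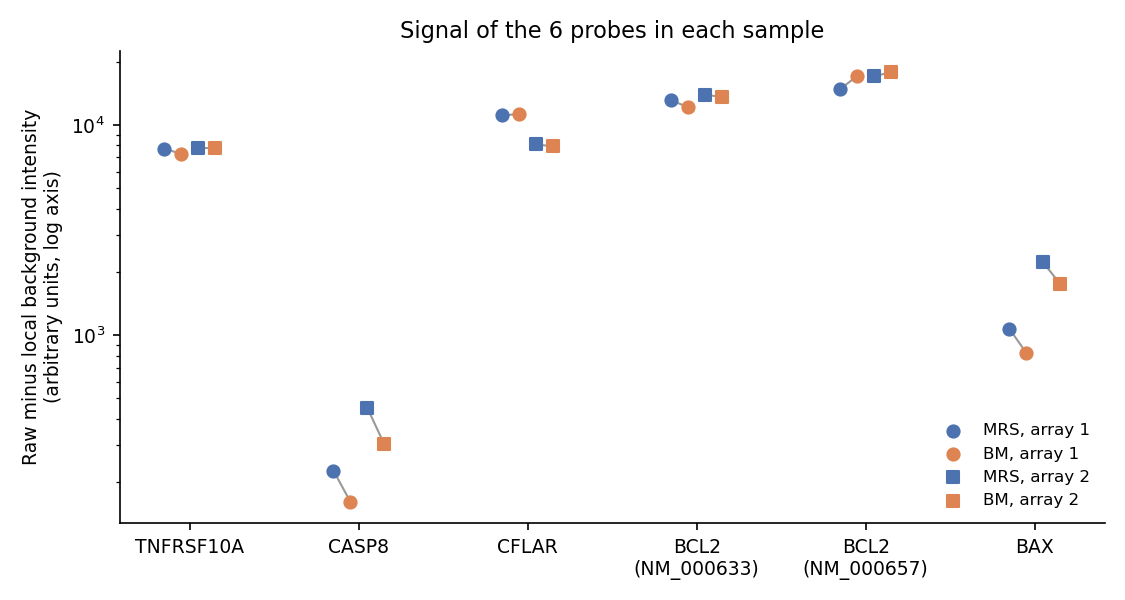
Raw minus local background intensity (arbitrary units, log axis) of the 6 probes in each of the 4 samples, as the mean of 2 spots. Lines join the MRS sample (blue) and the BM sample (orange) of an array, with circles for array 1 and squares for array 2; for CASP8 and BAX the step between arrays is larger than the step between the samples of an array.

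TNFRSF10A encodes death receptor 4, 1 of the receptors that bind TRAIL. Its signal (raw minus local background, mean of 2 spots, arbitrary units) was 7715 in MRS and 7273 in BM on array 1, and 7764 in MRS and 7762 in BM on array 2. The 4 samples thus lay close together, and the BM samples were level with MRS or below it before normalization. The trend of the ratio with intensity on each array, which loess removes, put a value of -0.16 and -0.14 (log2) on a probe of this brightness. After its removal the log2 ratio of BM over MRS was 0.074 on array 1 and 0.13 on array 2, a mean of 0.10 ± 0.037 (SD, n = 2), or 1.07-fold. The 95% interval of the mean was -0.042 to 0.24, the unadjusted p was 0.127 and the adjusted p was 0.779 (limma).

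All 4 single spots of TNFRSF10A gave a positive ratio, between 0.072 and 0.14. The spots were uneven in brightness in a way that their ratios were not. The first spot had a raw MRS intensity of 6138 on array 1 and 9774 on array 2, and the second 9388 and 5857, so the brighter spot was a different one on each array. On the normalized log2 scale both BM samples (12.89 and 12.95) lay above both MRS samples (12.81 and 12.82), as was the case for 2.96% of all probes. The ratio was 0.14 with print-tip loess and 0.16 with median centring.

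CASP8, the initiator caspase of the death receptor complex, had the ratio farthest from 0 among the 6 probes. Its signal was 226.9 in MRS and 161.3 in BM on array 1, and 451.8 in MRS and 303.7 in BM on array 2. BM was lower on both arrays, but the MRS sample of array 1 lay below the BM sample of array 2, so the groups overlapped. After loess the log2 ratio was -0.11 and -0.26, a mean of -0.18 ± 0.10 (SD, n = 2), or 0.880-fold. The 95% interval, -0.35 to -0.019, did not hold 0 before adjustment over probes (unadjusted p = 0.0359, adjusted p = 0.692, limma). A mean ratio of at least this size, in either direction, was found for 104 of the 1856 probes (5.6%).

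The CASP8 probe was also the one with the least signal over background: its raw intensity was 4.79 and 7.60 times the local background in MRS and 2.94 and 3.70 times in BM. Background of the BM channel was the higher one on both arrays, between 83.0 and 113.0 at the CASP8 spots against 58.4 to 68.7 in MRS. The ratio was -0.22 with plain subtraction (-0.31 on array 2) and -0.19 with no correction (-0.25 on array 2). What part the background has in the ratio was not tested. Print-tip loess gave -0.19, and median centring and the series matrix values gave -0.20 each. The 2 spots of array 1 gave -0.11 each, and those of array 2 gave -0.28 and -0.23. The difference between arrays, 0.14, was larger than that between spots of an array (0.0057 and 0.056).

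Among the 200 probes nearest in intensity, ratios had an SD of 0.095 on array 1 and 0.14 on array 2. In units of these SDs CASP8 lay at -1.18 and -1.81 from 0. With the SDs of its own neighbours, no member lay more than 2 SDs from 0 on either array. The share of all probes that did so was not counted.

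CFLAR, the inhibitor that competes with caspase-8, stood on the other side. Its signal was 11090 in MRS and 11278 in BM on array 1, and 8074 in MRS and 7911 in BM on array 2. The samples of an array differed by a few percent in opposite directions, and both samples of array 1 lay above both of array 2. After loess the log2 ratio was 0.13 and 0.10, a mean of 0.11 ± 0.017 (SD, n = 2), or 1.08-fold, with a 95% interval of -0.025 to 0.25 (unadjusted p = 0.0867, adjusted p = 0.770, limma). All 4 spots were positive, from 0.083 to 0.15. The positive sign on both arrays rests on the normalization: before loess the log2 ratio was 0.025 and -0.031. The loess curve stood at -0.10 and -0.13 for this probe, and the median ratio of the array before loess at -0.22 and -0.19. With median centring, which shifts every probe of an array alike, the ratio was 0.20.

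Of the pair that opposes each other at the receptor, CASP8 thus had the lower ratio. The log2 ratio of CASP8 minus that of CFLAR was -0.24 on array 1 and -0.36 on array 2, a mean of -0.30. It ranged from -0.27 to -0.40 over the 5 other ways of background correction and normalization. The difference compares 2 ratios and not 2 levels, and no test was made of it.

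**Figure D2:**
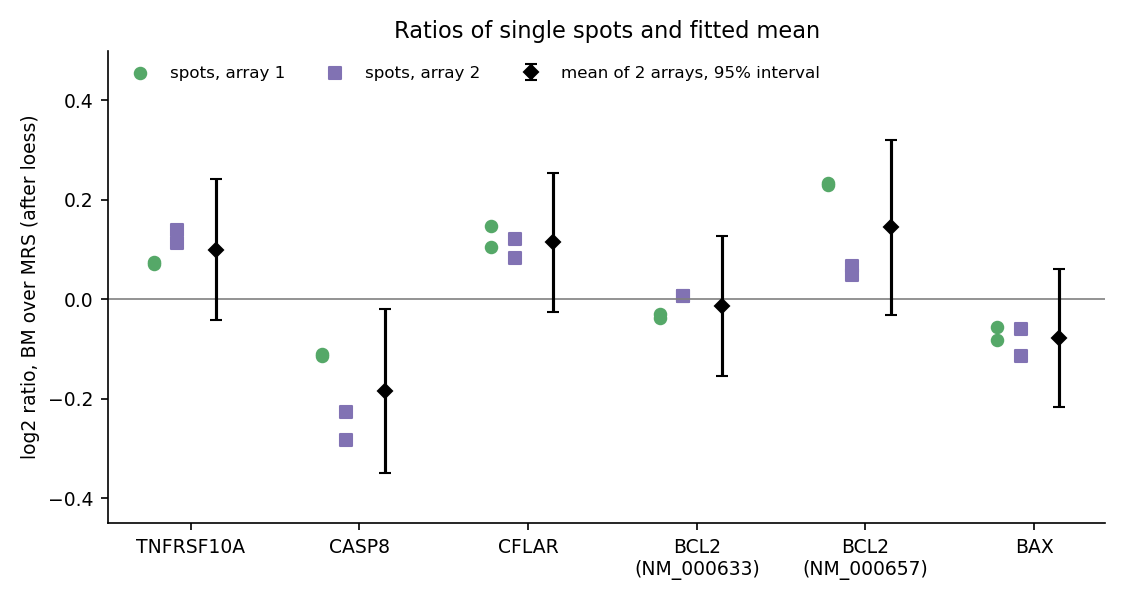
Log2 ratio of BM over MRS after loess for each spot of the 6 probes (green circles, array 1; purple squares, array 2) and the mean of the 2 arrays with its 95% interval from limma (black). All 4 spots lie above 0 for TNFRSF10A, CFLAR and BCL2 NM_000657 and below 0 for CASP8 and BAX, and only the interval of CASP8, which is not adjusted over probes, leaves out 0.

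BCL2, the founding anti-apoptotic member of its family, was measured by 2 probes that did not give the same ratio. They are listed under the accessions NM_000633 and NM_000657, which RefSeq assigns to different BCL2 transcripts. Which stretch of either transcript a probe covers is not stated by the labels or the files. For NM_000657 the signal was 14793 in MRS and 17137 in BM on array 1, and 17047 in MRS and 17812 in BM on array 2. BM was higher on both arrays, 1.16-fold and 1.04-fold before normalization. For NM_000633 it was 13100 in MRS and 12128 in BM on array 1, and 13939 in MRS and 13553 in BM on array 2. There BM was lower on both arrays, at 0.926-fold and 0.972-fold.

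After loess NM_000657 had a log2 ratio of 0.23 and 0.058, a mean of 0.14 ± 0.12 (SD, n = 2) or 1.11-fold, with a 95% interval of -0.031 to 0.32 (unadjusted p = 0.0864, adjusted p = 0.770, limma). On the normalized log2 scale its BM samples (14.07 and 14.12) lay just above its MRS samples (13.84 and 14.06). BM lay above MRS in this way for 2.96% of all probes, and for 2 of the 6 member probes. NM_000633 had -0.033 and 0.0062, a mean of -0.013 ± 0.028 (SD, n = 2) or 0.991-fold, with an interval of -0.15 to 0.13 (adjusted p = 0.957, limma). The first probe minus the second was 0.26 on array 1 and 0.052 on array 2. Most of the BCL2 ratio thus came from 1 probe on 1 array. Duplicate spots were close in every case, differing by 0.0042 and 0.019 for NM_000657 and by 0.0083 and 0.00066 for NM_000633.

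Both BCL2 probes lie in the bright range, where the loess curve bends. With median centring in place of loess, under which 1.83% of all probes passed, NM_000657 stood at 0.34 (adjusted p = 0.0947, limma) and NM_000633 turned to 0.13. Print-tip loess gave 0.12 and -0.0032, and the values of the series matrix 0.10 and -0.0063.

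BAX, the pore-forming effector of the mitochondrial pathway, gave a signal of 1074 in MRS and 824.7 in BM on array 1, and 2219 in MRS and 1757 in BM on array 2. BM was at 0.768 and 0.792 of its MRS partner, but both samples of array 2 lay above both of array 1. Before loess the log2 ratio was -0.35 and -0.32, of which the loess curve, with the offset of the array, made up -0.28 and -0.23. After loess the log2 ratio was -0.068 and -0.087, a mean of -0.077 ± 0.013 (SD, n = 2), or 0.948-fold. The 95% interval was -0.22 to 0.062, with an unadjusted p of 0.206 and an adjusted p of 0.796 (limma). All 4 spots were negative, from -0.055 to -0.11.

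The size of the BAX ratio depended on the normalization. Print-tip loess gave -0.029, the values of the series matrix gave -0.014 with array 1 turned to 0.011, and median centring gave -0.13. The log2 ratio of BAX minus that of BCL2, the balance often quoted for this pathway, was -0.30 on array 1 and -0.14 on array 2 with the probe NM_000657, and -0.035 and -0.093 with NM_000633. Their means, -0.22 and -0.064, were given no test. The second was -0.0072 with the series matrix values, with a positive value (0.063) on array 1.

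**Figure D3:**
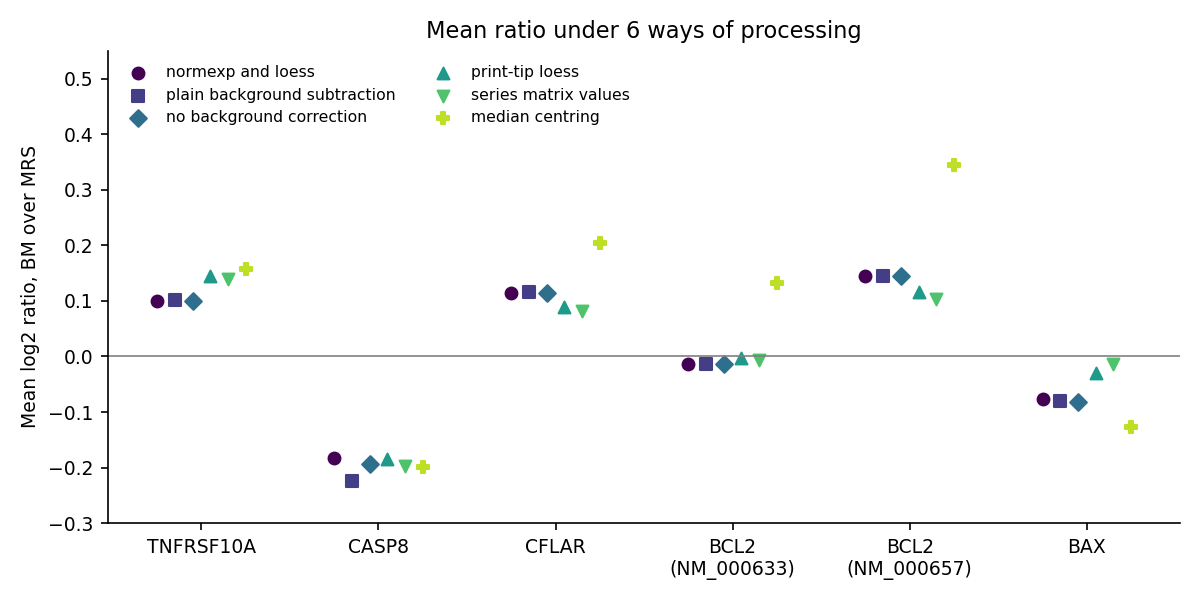
Mean log2 ratio of BM over MRS (2 arrays) for the 6 probes under 6 ways of background correction and normalization, 1 symbol each. CASP8 stays between -0.18 and -0.22, BAX runs from -0.014 to -0.13, and the BCL2 probe NM_000633 changes sign with median centring.

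The replicate pairs differed more than the treatment did for some members. From array 1 to array 2 the CASP8 signal was 1.99-fold in MRS and 1.88-fold in BM, and that of BAX 2.07-fold and 2.13-fold. CFLAR went the other way, to 0.728-fold and 0.701-fold. Both channels of an array moved together, and each ratio compares samples of 1 array. The loess curve depends on intensity, however, and for BAX it stood at -0.28 on array 1 and -0.23 on array 2. What part the steps have in the ratios was not tested. For TNFRSF10A and both BCL2 probes the steps were small, between 1.01-fold and 1.15-fold. Whether the steps come from the cultures or from the printing of the arrays was not tested.

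The intervals show what the 2 arrays could resolve. Their half-widths ran from 0.14 to 0.18 (log2) for the 6 probes, close to the median of 0.15 over all probes. Their lowest bound was 0.785-fold, for CASP8, and their highest 1.25-fold, for BCL2 NM_000657. The intervals cover neither a dye effect nor the adjustment over probes. Over all probes, the ratios of the 2 arrays had a correlation of 0.11.

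**Figure D4:**
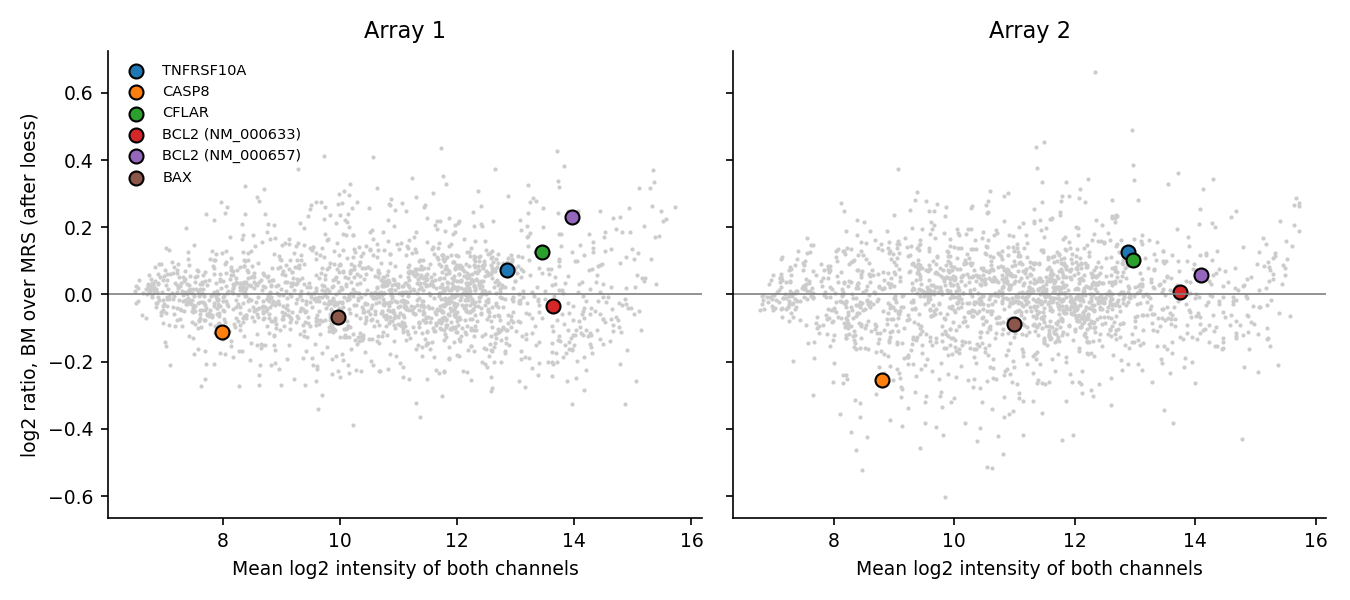
Log2 ratio of BM over MRS after loess against the mean log2 intensity of both channels, for 1856 probes (grey) on array 1 (left) and array 2 (right), with the 6 probes in colour. All 6 lie inside the cloud of the other probes on both arrays.

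The wider pathways were described by gene lists, with 1 probe per gene. Of 33 genes of the extrinsic pathway 17 were measured, of which 4 were higher in BM on both arrays, 7 lower and 6 of opposite sign. That is 23.5% higher and 41.2% lower, against 24.7% and 28.6% of all 1763 named genes. The median of their mean log2 ratios was -0.032, against -0.0057 over all genes, and it turned positive under other normalizations (0.0046, 0.0071 and 0.0083 for print-tip loess, median centring and the series matrix). Of 34 genes of the mitochondrial pathway 9 were measured, with 1 higher, 2 lower, 6 opposite and a median of 0.0034. None of the 26 passed (limma), and 2, CASP8 and DAP3, had an unadjusted p under 0.05. Of all 1763 named genes, 115 had such a p (limma), a similar share.

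Among death ligands and receptors, 2 of 10 were higher on both arrays and 4 lower. TNFSF10, which encodes the ligand TRAIL itself, had a log2 ratio of -0.070 and -0.32, a mean of -0.20 ± 0.18 (SD, n = 2, adjusted p = 0.770). It was below 0 while the receptor TNFRSF10A was above. TNFRSF1A, the main receptor of TNF, had -0.065 and -0.12, and TNF had 0.079 and 0.060. The other TRAIL death receptor, TNFRSF10B, was of opposite sign on the arrays (0.083 and -0.022), as was FAS (0.066 and -0.27), a receptor of the same family. The FAS probe differed widely in brightness, with a mean log2 intensity of both channels of 7.69 on array 1 and 11.50 on array 2.

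Among the genes that act inside the cell at these receptors, 2 of 7 were higher and 3 lower. CASP10, the close relative of CASP8, stood at 0.053 and 0.0070, and FADD, the adaptor that brings caspase-8 to the receptor, at -0.0062 and -0.057. DAP3, linked to receptor-induced death and also a protein of the mitochondrial ribosome, had -0.15 and -0.14 (unadjusted p = 0.0400, adjusted p = 0.700, limma). Its probe was dim, with a mean log2 intensity of both channels of 7.02 and 7.57, against 7.98 and 8.80 for CASP8.

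Of the anti-apoptotic BCL2 family, 1 of 4 measured genes (BCL2) was higher and 1 lower. BCL2L1, which encodes BCL-XL, stood at -0.034 and -0.043. MCL1, another guardian of mitochondria, differed between the arrays by more than its mean, at 0.29 and -0.089. Of the 4 measured pro-apoptotic genes BAX alone had the same sign on both arrays. BAD, HRK and BNIP3L had opposite signs, as did APAF1, the scaffold of the apoptosome, at 0.066 and -0.27. Opposite signs were common, found for 823 of all 1763 named genes. BAD did not reach 1.5 times the local background in all 4 samples.

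Downstream of both routes only 2 genes of the executioner list were measured, and both are caspase substrates. PARP1 stood at 0.015 and 0.13 and GSN (gelsolin) at 0.042 and 0.033. The inhibitor of apoptosis genes BIRC5 (survivin) and BIRC6 had opposite signs. The reference genes ACTB and GAPDH had mean log2 ratios of 0.034 ± 0.062 and 0.020 ± 0.0083 (SD, n = 2). The means of all member probes but BCL2 NM_000633 lay farther from 0 than either. On array 1, however, ACTB stood at 0.078 and TNFRSF10A at 0.074. By the size of the mean ratio, CASP8 ranked 104, BCL2 NM_000657 183, CFLAR 314, TNFRSF10A 406 and BAX 609 among the 1856 probes. BCL2 NM_000633 ranked 1610. Many other probes thus also lay farther from 0 than the reference genes.

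**Figure D5:**
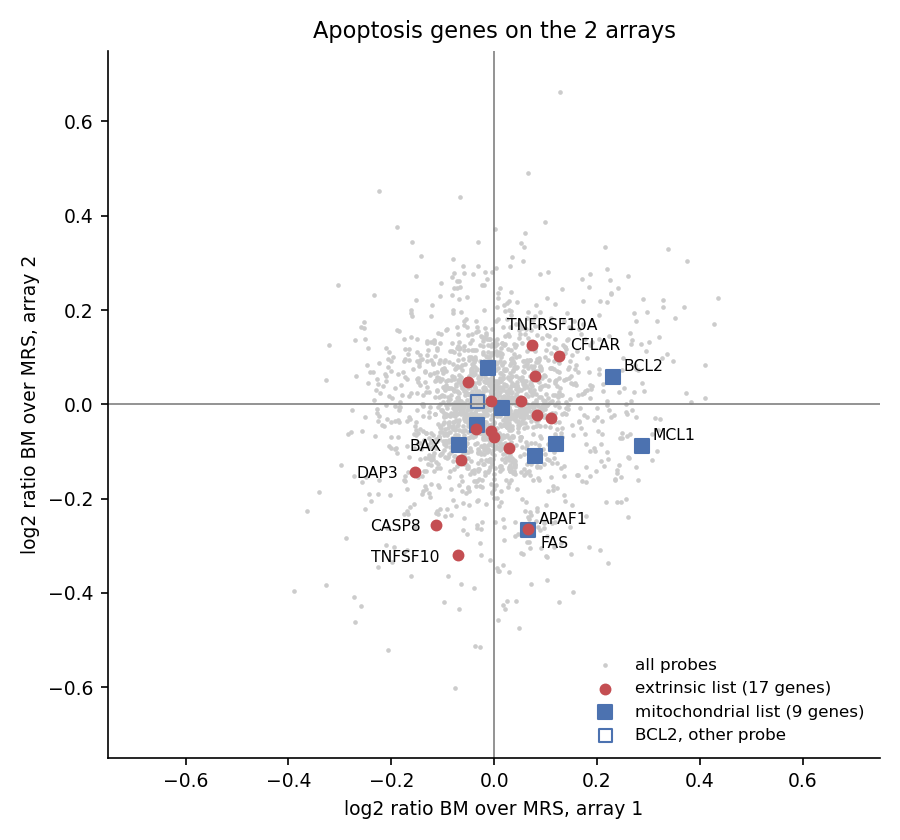
Log2 ratio of BM over MRS on array 1 (x axis) and array 2 (y axis), after loess, for all probes (grey), the 17 measured genes of the extrinsic list (red circles) and the 9 of the mitochondrial list (blue squares), with the second BCL2 probe as an open square. CASP8 and TNFSF10 lie at the lower left and TNFRSF10A, CFLAR and the BCL2 probe NM_000657 in the upper right, while MCL1, FAS and APAF1, the last 2 at nearly the same place, change sign between arrays.

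For each member, the named probe with the most similar pair of ratios was taken by Euclidean distance over the 2 arrays, among 1760 probes above background. These were TNFRSF6B, which encodes a soluble decoy receptor of the same family, for TNFRSF10A (0.079 and 0.12), CCL8 for CASP8 (-0.11 and -0.25), MATR3 for CFLAR, RORB and KIF1C for the BCL2 probes NM_000633 and NM_000657, and VAV2 for BAX. Such matches are common with only 2 arrays. Within a distance of 0.05 lay 11 probes for CASP8, 15 for BCL2 NM_000657, 46 for CFLAR, 55 for TNFRSF10A, 119 for BAX and 227 for BCL2 NM_000633.

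The authors' deposited table compares the groups per spot, from the net intensities. Of the 12 member spots, 1 spot of CASP8 reached a z ratio of 2 in size (-2.07, 0.853-fold in the authors' deposited table), as did 4.83% of all spots. The other CASP8 spot had -1.94 (0.861-fold) in the authors' deposited table. The second TNFRSF10A spot was the only 1 of the 12 with a deposited p under 0.05 (p = 0.0152, 1.09-fold in the authors' deposited table), as had 9.61% of all spots, while the first had p = 0.138. Those deposited p-values equal a one-sided paired test on 2 pairs and are not adjusted. The other spots of CFLAR, BCL2 and BAX had z ratios from -0.35 to 0.99 in the authors' deposited table, and the 2 BAX spots lay at -0.35 and 0.028.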

How the data were processed

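Per the labels' protocols, cDNA made from 5 μg of RNA of each sample carried 1 of 2 dyes. Per the file headers, the authors deposited the mean raw intensity, local background and net intensity of each spot, and a table with a fold ratio, a z ratio (a score) and a p-value per spot. The net intensity of BM holds a further factor, 1.22 to 1.33 for CASP8 and 0.956 to 0.989 for BCL2 NM_000657, whose method no source here states. The submitters' processing notes name R 4.2.2.

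Background was corrected by normexp with an offset of 50, and each array was normalized by loess (limma 3.58.1, R 4.3.3), with 54 control spots at weight 0. Spots of a probe were averaged, and limma fitted an intercept to the 2 log2 ratios (eBayes, Benjamini-Hochberg over 1856 probes, threshold 0.05), with 1 residual degree of freedom and 3.50 prior ones. A ratio compares samples of 1 array, which carry the same replicate number in their titles, so the fit is paired. Of the probes, 1701 were named by accession and 75 by symbol or synonym (RefSeq, GRCh38.p14). The steps were tested on simulated data, in which every change was larger than the mean ratio of any member. That test therefore does not show how the fit treats ratios as small as theirs.

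The members and gene lists were chosen with earlier results of these data known. Named beside the members were up to 4 genes per list above background of equal sign on both arrays, ranked by their smaller absolute ratio, the nearest probe by ratios, and ACTB and GAPDH. FAS, TNFRSF10B, FADD, BAD, HRK, BNIP3L, APAF1, MCL1, BIRC5 and BIRC6 were named after their values were seen, for their role. No sequences of the probes were used here, and the leukocyte markers are not reported here. Alternatives varied the background correction, the normalization, the source of values, the filter on dim probes (1.5 times background), the probes per gene, the block and the samples.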

Additional observations from a re-analysis of the deposited data

How the results depend on the processing

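TNFRSF10A, CASP8, CFLAR, BAX and the BCL2 probe NM_000657 kept their sign under all settings that keep the 4 samples, and no member passed under any alternative. The BCL2 probe NM_000633 reversed to 0.13 with median centring. That setting called 34 of 1856 probes (33 higher in BM), none of them a member, where the other settings called 0. It also moved CASP8 minus CFLAR to -0.40 and BAX minus BCL2 to -0.47 (NM_000657) and -0.26 (NM_000633). The last was -0.0072 on the series matrix values. The extrinsic median moved to 0.0071, 0.0046 and 0.0083 (median centring, print-tip loess, series matrix). The cause was not tested. With no replicate block the mean ratios were the same by construction (CASP8 -0.18, CFLAR 0.11) and unadjusted p-values ran from 0.423 to 0.937, since differences between arrays then enter the spread. Leaving out 1 sample or 1 array gave -0.40 to 0.034 for CASP8, -0.16 to 0.39 for CFLAR, -0.48 to 0.33 for BAX, 0.070 to 0.13 for TNFRSF10A, 0.058 to 0.23 for NM_000657 and -0.074 to 0.048 for NM_000633. Where 1 sample is left out, the pairs are unequal and the step between arrays enters the ratio, and the lone sample is assumed to vary like the other group. CASP8 had the least signal over background of the 6 probes, at 2.94 to 7.60 times.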
